A study of Mus musculus with 19 samples.

Results

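Epididymal white adipose tissue (eWAT) of mice fed a high-fat diet (HFD) poor in Mg2+ was compared with that of mice fed a low-fat diet (LFD) with normal Mg2+, to see how far the tissue stayed from the normal lean state. The comparison was chosen by diet label alone, over all genes, and holds 9 of the 19 samples of the series, 5 LowMg-HFD and 4 NormMg-LFD. Male C57Bl6/J mice, 9 to 10 weeks old at allocation, received 1 of 4 diets for 17 weeks. Palm oil supplied 10% of dietary energy in the LFD and 60% in the HFD, and MgO made up 0.21% (wt/wt) of the NormMg diets and 0.03% of the LowMg diets, so that LowMg-HFD and NormMg-LFD differ in both. NormMg-HFD mice (n = 5) served as the obese reference and LowMg-LFD mice (n = 5) as a further lean group. Each library came from 1 mouse, and all mice were of the same strain with no genetic change named in the labels.

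White adipocytes take up and make fatty acids, store them as triacylglycerol and secrete leptin, adiponectin and adipsin. When adipocytes enlarge on an HFD, macrophages gather around them and take on a lipid-handling programme with Trem2, Gpnmb and Itgax, collagen is laid down and adipocyte genes for lipogenesis and adrenergic lipolysis decline. 

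The libraries of both groups held 12986441 to 13027028 reads, of which 86.12% to 89.19% mapped. The 15 adipocyte markers summed to 24601 to 32508 FPKM (fragments mapped to a gene, scaled to its length and to the mapped reads of the library) in LowMg-HFD mice and 22045 to 31565 in NormMg-LFD mice, so the tissue label held in every library. Pancreatic acinar genes (16 listed) summed to 2041 FPKM in NormMg-LFD replicate 3, to 18.9 to 24.1 in the other NormMg-LFD mice and to 24.5 to 51.2 in LowMg-HFD mice. LowMg-HFD replicate 4, which is left out below as an alternative, had 45.4. The study's methods set aside a LowMg-HFD library for pancreatic tissue without naming it. LowMg-HFD replicate 4 and NormMg-LFD replicate 4 stood apart from the other mice on the second principal component, at -24.7 and -27.0, against -11.8 to 14.4 in the other 17 libraries. Mesothelial markers (8 listed) summed to 109 FPKM in that LowMg-HFD mouse, above the 21.9 to 52.7 of the rest of its group, and to 44.2 to 123 in NormMg-LFD mice. Where the number of called genes of a list changed without LowMg-HFD replicate 4, NormMg-LFD replicate 3 or NormMg-LFD replicate 4, that number is given beside it, while fold changes are those of all mice unless stated. The part of pancreatic or mesothelial RNA in the results was not tested.

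Across the tested genes, LowMg-HFD eWAT lay between the lean and the obese tissue, nearer to either one depending on the mouse. PC1, the first principal component, held 51.5% of the variance. It was -26.9 to -16.5 in NormMg-LFD mice, 28.2 to 46.9 in NormMg-HFD mice and 19.1, 21.0, -7.81, -2.55 and -1.27 in LowMg-HFD replicates 1 to 5. Replicates 1 and 2 thus sat towards the obese mice and the other 3 towards the lean ones, and all 5 lay above every NormMg-LFD mouse. The LowMg-HFD mean exceeded the NormMg-LFD mean by 28.3 (exact two-sided permutation p = 0.0159 over 126 arrangements). It exceeded it by 30.4 without LowMg-HFD replicate 4 (exact permutation p = 0.0286 over 70 arrangements) and by 26.7 without NormMg-LFD replicate 3 (exact permutation p = 0.0536), where the threshold was no longer passed. Without the filter on low values the difference was 19.9 and was not called (exact permutation p = 0.635). On a scale with the NormMg-LFD mean at 0 and the NormMg-HFD mean at 1, LowMg-HFD mice stood at 0.685, 0.724, 0.268, 0.336 and 0.375, a mean of 0.478 ± 0.211 (SD, n = 5), or 0.513 ± 0.226 without replicate 4 (SD, n = 4). NormMg-LFD mice, each placed against the others, stood at -0.0266 to 0.176, and LowMg-LFD mice at -0.0997 to 0.0819, so that none overlapped the LowMg-HFD mice. The root mean square log2 distance from the NormMg-LFD mean was 0.339 to 0.574 in LowMg-HFD mice and 0.314 to 0.423 in NormMg-LFD mice themselves, which overlap, and 0.617 to 0.811 in NormMg-HFD mice.

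**Figure D1:**
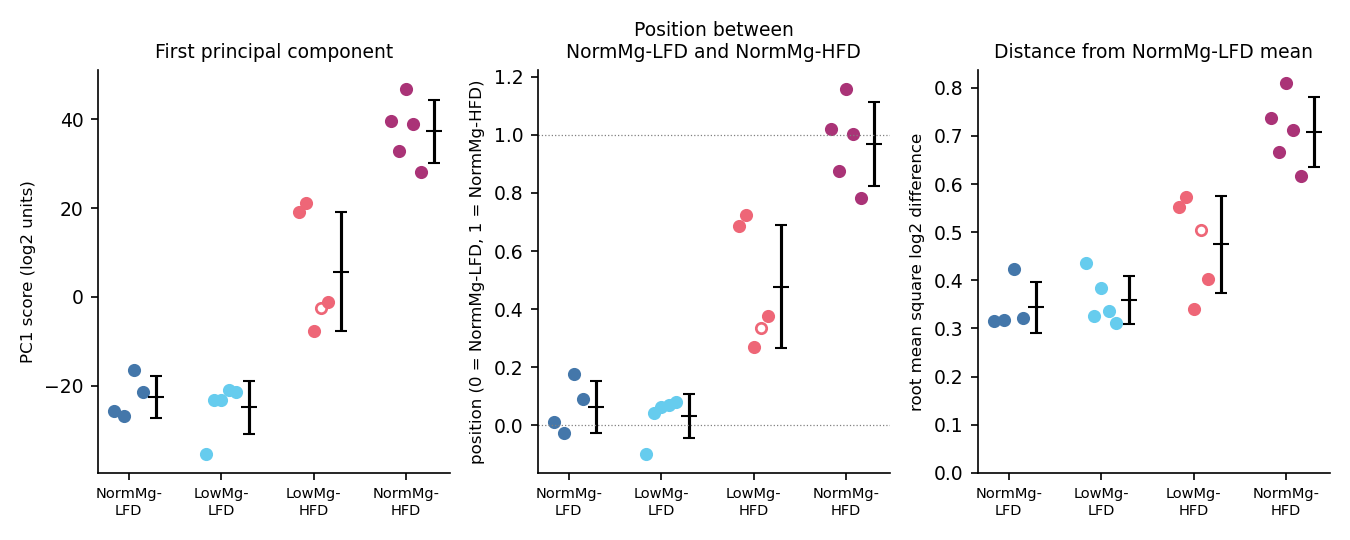
PC1 score, position between the lean and obese means and root mean square log2 distance from the NormMg-LFD mean, 1 point per mouse in the 4 diet groups, with group mean ± SD in black and LowMg-HFD replicate 4 as an open circle. LowMg-HFD mice spread from 0.268 to 0.724 on the position scale, above every lean mouse and below every NormMg-HFD mouse.

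Of 8336 genes tested, 441 rose (5.29%) and 137 fell (1.64%) in LowMg-HFD mice relative to NormMg-LFD mice, 578 in all (6.93%). NormMg-HFD mice, against the same controls, had 2048 genes higher (24.6%) and 1066 lower (12.8%). A direct comparison of LowMg-HFD with NormMg-HFD mice, which tests the difference between those distances, called 465 genes higher (5.58%) and 1077 lower (12.9%). Changes beyond 1 log2 unit were found in 139 genes that rose and 24 that fell, compared with 572 and 196 in NormMg-HFD mice. In 718 genes (8.61%) no LowMg-HFD value overlapped a NormMg-LFD value, and 402 of these were also called. A gene was taken to be at the lean level when the 95% interval of its log2 difference lay within 0.5 of 0, which held for 4591 genes (55.1%). The median absolute log2 difference was 0.15 in LowMg-HFD and 0.27 in NormMg-HFD mice.

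The number of genes called depended on which mice entered. Without LowMg-HFD replicate 4, 620 genes were higher (7.44%) and 184 lower (2.21%), and 521 of the 578 calls were kept. Calls fell to 199 without LowMg-HFD replicate 2, 229 without replicate 1, 219 without NormMg-LFD replicate 3 and 241 without NormMg-LFD replicate 2, and to 103 when only these 2 groups were fitted. Without NormMg-LFD replicate 4 they numbered 537. Of the 57 named genes that were called, 35 kept the call without LowMg-HFD replicate 1 and 35 without replicate 2, 36 without NormMg-LFD replicate 2, 33 without NormMg-LFD replicate 3 and 22 when these 2 groups were fitted alone. The direction of these 57 genes, which were chosen as called, did not change in those fits.

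**Figure D2:**
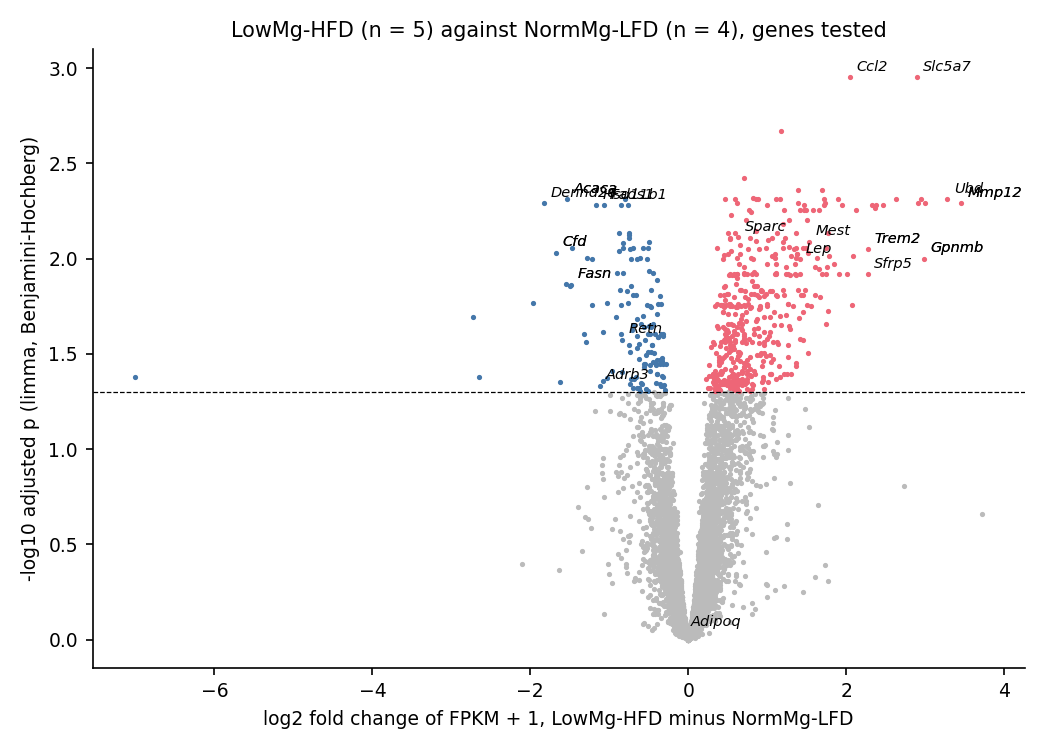
Each tested gene by its log2 fold change (LowMg-HFD minus NormMg-LFD, horizontal) and -log10 adjusted p (limma, vertical), with 441 called rises in red, 137 called falls in blue and the 0.05 threshold dashed. On this log2(FPKM + 1) scale Mmp12 lies at 3.45, while Adipoq lies at -0.04.

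Genes of macrophages led the rises. Of 16 pan-macrophage markers, all tested, 8 rose and none fell, where 5.29% of all tested genes rose and 1.64% fell. The median log2 change of the list was 0.89, while the median of all genes tested was 0.04. Of 16 lipid-associated macrophage genes, 15 were tested, 10 rose and none fell (median 1.45). In NormMg-HFD mice 14 of the 16 and 14 of the 15 were called higher, with medians of 2.18 and 3.08, where 24.6% of all tested genes were higher. LowMg-HFD mice were lower than NormMg-HFD mice in 14 and 13 of them, against 12.9% of all tested genes. LowMg-HFD mice were higher in 1, the acid phosphatase Acp5. In bulk tissue, fewer cells of a type and less RNA per cell cannot be told apart. The SD of the mean log2 level of the lipid-associated list was 0.873 in LowMg-HFD mice and 0.186 to 0.320 in the other groups. The SE and adjusted p of these genes come from a spread shared by all 4 groups.

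Trem2, a lipid-sensing receptor of adipose macrophages, was at 110, 99.4, 21.1, 21.7 and 25.3 FPKM in LowMg-HFD replicates 1 to 5 and at 5.55, 7.69, 11.96 and 7.39 in NormMg-LFD mice. It was 115 to 257 in NormMg-HFD mice, so that the 2 highest LowMg-HFD mice came close to the obese range and the other 3 stood lower, above every lean mouse. The log2 change of Trem2 against NormMg-LFD was 2.28 (SE 0.47, limma adjusted p = 0.00892), and 2.51 without LowMg-HFD replicate 4. Gpnmb, a transmembrane glycoprotein of lysosome-stressed macrophages, had 339, 262, 30.8, 26.1 and 50.4 FPKM against 5.25 to 19.1 in NormMg-LFD mice, a log2 change of 2.99 (SE 0.63, limma adjusted p = 0.00999). Replicates 1 and 2 were again the highest, and no LowMg-HFD mouse overlapped a lean one. Mmp12, a macrophage elastase, went from 3.88 to 15.8 FPKM in NormMg-LFD mice to 319, 220, 39.3, 26.2 and 69.6 in LowMg-HFD mice (log2 change 3.45, SE 0.60, limma adjusted p = 0.00511). Adgre1, which encodes the F4/80 antigen, was at 12.1 to 14.8 FPKM in NormMg-LFD mice and at 70.2, 57.8, 23.6, 18.9 and 29.1 in LowMg-HFD mice, with no overlap. This was a log2 change of 1.29 (limma adjusted p = 0.0122).

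The other large rises included further macrophage genes. Itgax (CD11c) rose by a log2 of 2.37, Il1rn, the interleukin-1 receptor antagonist, by 2.32 and Atp6v0d2, a subunit of the lysosomal proton pump, by 3.00. Ubd, a ubiquitin-like modifier induced by inflammation, rose by 3.28, Rgs1, a regulator of G-protein signalling in leucocytes, by 2.94 and F7, coagulation factor VII, by 2.37. Vsig8 and Tm4sf19 were near 0 in NormMg-LFD mice, at 0 to 0.58 and 0 to 0.29 FPKM, and entered the test through the HFD groups. Their log2 changes were 2.63 and 2.46 with a pseudocount of 1 and 4.95 and 4.79 with one of 0.1, so the size depends on the pseudocount. Rgs1, at a mean of 0.45 FPKM in NormMg-LFD mice, likewise went to 4.66. Over the 19 alternatives the log2 change ran from 1.78 to 3.57 for F7, 1.72 to 3.17 for Il1rn and 2.48 to 3.72 for Atp6v0d2. Both Vsig8 and Tm4sf19 lost the call when the 2 groups were fitted alone (limma adjusted p = 0.0526 and 0.0569). Itgax, Il1rn, Atp6v0d2, F7, Trem2, Gpnmb and Adgre1 also each lost the call in 1 of 19 alternatives (limma adjusted p up to 0.0718). Slc5a7, the high-affinity choline transporter, followed another course. It was at 22.0, 46.0, 8.84, 22.7 and 20.2 FPKM in LowMg-HFD mice, 1.02 to 5.20 in NormMg-LFD mice and 22.3 to 32.3 in NormMg-HFD mice. Its log2 change was 2.89 against NormMg-LFD (SE 0.37, limma adjusted p = 0.00112) and -0.41 against NormMg-HFD (95% interval -1.14 to 0.32, limma adjusted p = 0.445), so no difference from the obese level was detected.

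Not all macrophage genes were called. Of 11 tested genes of tissue-resident macrophages none passed the threshold (median -0.06), with Mrc1 at a log2 change of 0.33, Lyve1 at 0.03 and Cd163 at -0.30. Their summed level was 447 to 636 FPKM in LowMg-HFD and 520 to 615 in NormMg-LFD mice, while that of the pan-macrophage list was 2333, 1991, 1158, 860 and 1206 in LowMg-HFD replicates 1 to 5 and 604 to 763 in NormMg-LFD mice. Mertk, a receptor for the uptake of dead cells, was at -0.21 and Spp1 (osteopontin), which was 3.43 higher in NormMg-HFD than in NormMg-LFD mice, was at 1.11 (limma adjusted p = 0.289).

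**Figure D3:**
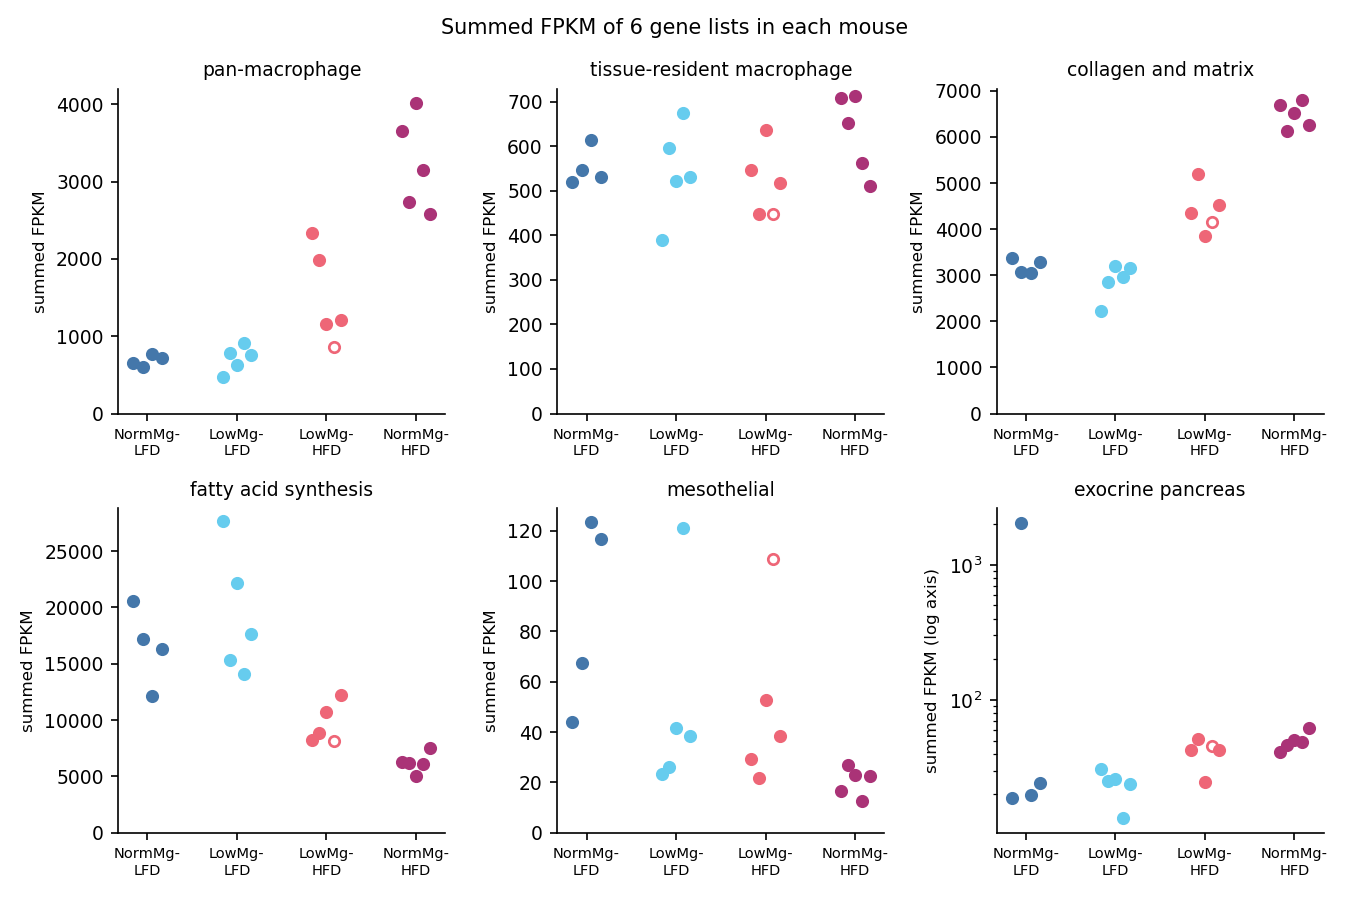
Summed FPKM of 6 gene lists in each mouse (linear axes from 0, except a log axis for exocrine pancreas), 4 diet groups, with LowMg-HFD replicate 4 as an open circle. Pan-macrophage levels of LowMg-HFD mice run from 860 to 2333, tissue-resident macrophage levels overlap between groups, and NormMg-LFD replicate 3 stands at 2041 for the pancreas list.

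Several chemokines that draw monocytes rose. Of 26 listed chemokines and inflammatory mediators, 13 were tested, 5 rose and none fell (median 0.76), where 5.29% of all tested genes rose. Ccl2, the main monocyte chemoattractant, was at 30.0, 25.1, 16.6, 17.98 and 25.8 FPKM in LowMg-HFD mice and 3.24 to 7.63 in NormMg-LFD mice, and every LowMg-HFD mouse exceeded every lean one. Its log2 change was 2.05 (SE 0.26, limma adjusted p = 0.00112), and it stayed 1.14 below NormMg-HFD. Ccl7, Ccl9, Casp1 and Il1rn also rose, by 1.58, 1.45, 1.01 and 2.32. Cxcl12 and Cxcl9 were at 0.07 and 0.34. Of 8 MHC class II presentation genes, 6 were tested and 4 rose (median 0.64), among them H2-Aa at 0.64 and H2-Ab1 at 0.70. Without LowMg-HFD replicate 4, all 6 of these passed, with 11 pan-macrophage genes and 7 chemokines and mediators. Without NormMg-LFD replicate 3, 1 of the 6 passed, with 4 pan-macrophage and 8 lipid-associated macrophage genes. Without NormMg-LFD replicate 4, 3 of the 6 passed, with 8 lipid-associated macrophage genes. When the 2 groups were fitted alone, 2 pan-macrophage genes, 1 lipid-associated gene, 2 chemokines and mediators and 0 MHC class II genes passed.

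Leptin and 3 genes of fat-pad expansion rose, and none of these 4 differed from NormMg-HFD past the threshold. Lep, the satiety hormone of adipocytes, was at 835, 1226, 663, 1072 and 964 FPKM in LowMg-HFD mice, at 293 to 427 in NormMg-LFD mice and at 960 to 1285 in NormMg-HFD mice. No LowMg-HFD mouse overlapped a lean mouse. The log2 change of Lep was 1.41 against NormMg-LFD (SE 0.30, limma adjusted p = 0.0100) and -0.28 against NormMg-HFD (95% interval -0.87 to 0.31). Mest, an imprinted gene that follows adipocyte enlargement, was at 397, 624, 215, 312 and 363 FPKM against 79.2 to 205 in NormMg-LFD mice, a log2 change of 1.53 (limma adjusted p = 0.00813). It differed from NormMg-HFD by -0.11 (95% interval -0.71 to 0.48). Sfrp5, a secreted inhibitor of Wnt signalling, was at 346, 311, 143, 138 and 239 FPKM against 30.1 to 77.5 in NormMg-LFD mice and 85.9 to 262 in NormMg-HFD mice. Its log2 change was 2.27 (limma adjusted p = 0.0120), the largest of the list, and Fgf13 rose by 1.85. Of the 8 tested genes of adipose expansion 3 rose and none fell (median 1.29), the others being Bmp3 at 1.10, Peg3 at 1.47, Npr3 at 0.32, Nnat at -0.21 and Cav1 at -0.03, which did not pass. Peg3 passed without LowMg-HFD replicate 4. Of all tested genes 5.29% rose.

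**Figure D4:**
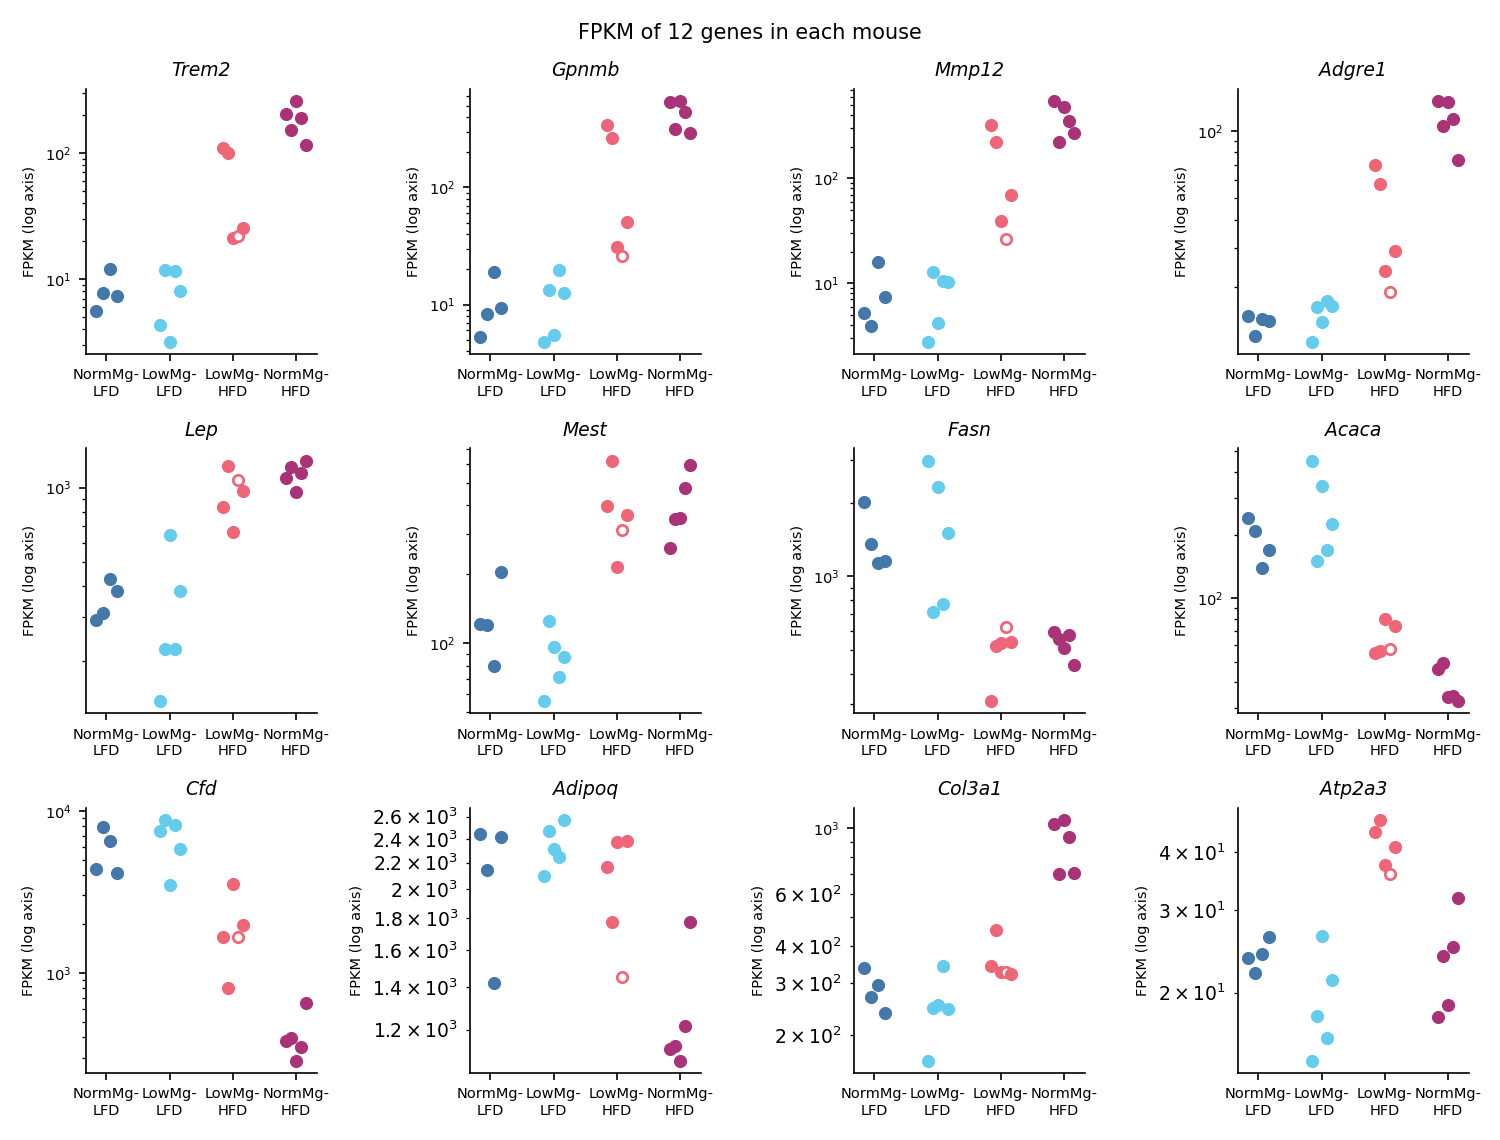
FPKM of 12 genes in each mouse on log axes, 4 diet groups, with LowMg-HFD replicate 4 as an open circle. LowMg-HFD values of Trem2, Gpnmb, Mmp12 and Adgre1 lie above every NormMg-LFD mouse, those of Lep, Mest and Fasn overlap NormMg-HFD mice, those of Adipoq and Col3a1 overlap NormMg-LFD mice, and those of Atp2a3 (35.9 to 46.9) lie above both.

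Of 16 genes of fatty acid synthesis, all tested, 7 fell, 9 did not pass and none rose (median -0.75), where 1.64% of all tested genes fell. With 1 mouse left out, 3 to 7 fell, 3 without NormMg-LFD replicate 2 or without LowMg-HFD replicate 1, and 2 fell with no filter on low values. Against NormMg-HFD mice, 6 of the 16 were called higher in LowMg-HFD mice and 0 lower, where 5.58% of all tested genes were higher. Fasn, the fatty acid synthase, was at 308, 517, 534, 622 and 539 FPKM in LowMg-HFD mice and 2018, 1355, 1138 and 1153 in NormMg-LFD mice, with no overlap. Its log2 change was -1.48 (SE 0.33, limma adjusted p = 0.0137), while it differed from NormMg-HFD by -0.11 (95% interval -0.77 to 0.55). Acaca, acetyl-CoA carboxylase, was at 55.0, 56.1, 79.7, 57.6 and 74.0 FPKM against 140 to 240 in NormMg-LFD mice, again with no overlap (log2 change -1.53, limma adjusted p = 0.00485), and was 0.71 above NormMg-HFD. Fads1, a desaturase of polyunsaturated fatty acids, fell by 1.07 on the log2 scale and differed little from NormMg-HFD (-0.01, 95% interval -0.39 to 0.37). Scd1, the stearoyl-CoA desaturase, fell by 0.74, Mlxipl (ChREBP), a carbohydrate-responsive activator of these genes, by 0.76, Acacb by 0.69 and Srebf1 by 0.49. Scd1 and Acacb lost the call without LowMg-HFD replicate 4, 4 genes of the list passed without NormMg-LFD replicate 3 or without LowMg-HFD replicate 2, and Scd1 lost its call in 11 of 19 alternatives (limma adjusted p up to 0.423). Acly and Elovl6, at -1.09 and -1.08, did not pass (limma adjusted p = 0.120 and 0.111) although their groups did not overlap, and Elovl5 was at 0.00. Tkt, the transketolase of the pentose phosphate pathway, fell by 1.09. Slc5a6, which imports biotin, the cofactor of acetyl-CoA carboxylase, fell by 1.22. Tkt and Slc5a6 each lost the call in 6 of 19 alternatives (limma adjusted p up to 0.0946 and 0.0725).

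Promoters of these genes were read from RefSeq (GRCm38.p6) for the members of the list with a window there, called or not, beside Hmgcs1, the cytosolic HMG-CoA synthase and the 1 called among 19 tested genes of cholesterol synthesis and uptake (log2 change 0.91, limma adjusted p = 0.0181). No gene of that list was called without NormMg-LFD replicate 2 or 3, without LowMg-HFD replicate 2 or with no filter on low values. Each window runs from 250 bases before to 50 bases after a transcription start, 5′ to 3′ on the strand of the gene. Capitals mark the E-box CACGTG, bound by USF proteins, the sterol regulatory element TCACNCCAC and the inverted CCAAT box ATTGG, each searched on both strands, and matches that overlap are counted separately. Fasn lies at chr11:120824498-120824797 on the minus strand, Mlxipl at chr5:135089640-135089939 and Hmgcs1 at chr13:119690101-119690400 on the plus strand.
Fasn: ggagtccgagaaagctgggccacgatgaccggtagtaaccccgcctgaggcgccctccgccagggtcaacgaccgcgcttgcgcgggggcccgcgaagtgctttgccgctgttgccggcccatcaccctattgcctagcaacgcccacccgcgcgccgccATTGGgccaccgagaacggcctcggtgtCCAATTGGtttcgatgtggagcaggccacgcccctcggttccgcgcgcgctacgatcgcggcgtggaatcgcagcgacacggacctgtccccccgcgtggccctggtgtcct
Mlxipl: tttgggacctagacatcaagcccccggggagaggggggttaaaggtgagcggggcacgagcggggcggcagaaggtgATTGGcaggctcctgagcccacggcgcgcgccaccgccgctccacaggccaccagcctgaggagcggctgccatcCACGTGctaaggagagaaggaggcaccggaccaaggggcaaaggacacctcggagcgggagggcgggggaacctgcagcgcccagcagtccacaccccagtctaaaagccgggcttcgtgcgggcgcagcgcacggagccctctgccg
Hmgcs1: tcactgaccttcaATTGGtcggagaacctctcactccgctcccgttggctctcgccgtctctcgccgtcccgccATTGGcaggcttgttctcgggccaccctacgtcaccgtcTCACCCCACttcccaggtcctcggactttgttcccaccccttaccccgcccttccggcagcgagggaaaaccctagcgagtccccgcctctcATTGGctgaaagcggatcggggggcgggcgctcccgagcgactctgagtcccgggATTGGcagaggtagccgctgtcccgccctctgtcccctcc
The Fasn window held 3 matches to the inverted CCAAT box, 2 of them overlapping in 1 run, and neither of the other motifs. The Mlxipl window printed held 1 E-box and 1 inverted CCAAT box. The other Mlxipl window of the table, at chr5:135106641-135106940, held 1 sterol regulatory element, the 1 such match of the fatty acid synthesis list, and neither of the other motifs. The Hmgcs1 window held 1 sterol regulatory element and 4 inverted CCAAT boxes. Promoters were matched for 13 of the tested fatty acid synthesis genes and for 13 of the tested cholesterol genes. A gene was counted for a motif when any of its windows held a match. The E-box was found in 23.1% of both lists and in 12.1% of the 6282 tested genes whose promoters were read. The inverted CCAAT box was found in 76.9% of the first list, in 100% of the second and in 42.4% of the tested genes, and the sterol regulatory element in 7.69%, 7.69% and 1.5%. The Acaca window held none of the 3.

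Adipsin and resistin fell, and stayed above the obese level. Cfd, which encodes the complement protease adipsin, was at 1652, 806, 3539, 1667 and 1963 FPKM in LowMg-HFD mice, 4122 to 7899 in NormMg-LFD mice and 287 to 649 in NormMg-HFD mice, and the 3 groups did not overlap. Its log2 change was -1.67 against NormMg-LFD (SE 0.34, limma adjusted p = 0.00929) and 2.12 against NormMg-HFD (limma adjusted p = 0.00178). Retn (resistin) fell by 0.84, with overlapping groups, and stood 1.33 above NormMg-HFD, and its call was lost in 9 of 19 alternatives (limma adjusted p up to 0.103). Adrb3, the beta-3 adrenergic receptor through which catecholamines start lipolysis, was at 231, 117, 392, 139 and 398 FPKM in LowMg-HFD mice against 358 to 672 in NormMg-LFD mice, so the groups overlapped. The log2 change of Adrb3 was -1.12 (limma adjusted p = 0.0463), or -0.95 without LowMg-HFD replicate 4 (limma adjusted p = 0.0811), and it was 1.45 above NormMg-HFD. The call of Adrb3 was lost in 13 of 19 alternatives (limma adjusted p up to 0.214). Saa3, an acute-phase protein, rose by 2.07, Angptl4, an inhibitor of lipoprotein lipase, by 1.12, Serpinf1 by 0.86 and Apln (apelin) by 0.80. Saa3 lost its call in 6 of 19 alternatives (limma adjusted p up to 0.0921). Of the 19 adipokines and secreted factors 6 rose and 2 fell (median 0.24), against 7 and 2 without LowMg-HFD replicate 4, 5 and 1 without NormMg-LFD replicate 3 and 5 and 2 without NormMg-LFD replicate 4, where the median turned to -0.0877. Over all tested genes 5.29% rose and 1.64% fell. Agt at -0.54, Timp4 at -0.48 and Rbp4 at -0.41 did not pass.

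Other genes with large falls had various roles. Cyp2f2, a cytochrome P450, was at 0.99, 1.25, 1.38, 2.67 and 0.74 FPKM in LowMg-HFD mice against 3.97 to 16.3 in NormMg-LFD mice, a log2 change of -1.96 (SE 0.46, limma adjusted p = 0.0171). Gsta3, a glutathione transferase, fell by 1.28 on the log2 scale with no overlap between the groups. Hsd11b1, which regenerates active glucocorticoid in adipose tissue, was at 41.1 to 52.6 FPKM against 71.7 to 152 in NormMg-LFD mice and 20.2 to 31.4 in NormMg-HFD mice (log2 change -1.16, limma adjusted p = 0.00524). Dennd2d, an exchange factor for Rab GTPases, fell by 1.83 and Podn, a matrix proteoglycan, by 1.22. Cyp2e1 was at -0.92 and did not pass (limma adjusted p = 0.233).

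Some genes of mitochondrial pathways fell, where 1.64% of all tested genes fell. Of 17 genes of branched-chain amino acid catabolism, 4 fell and none rose (median -0.31), namely Ivd by 0.62, Acadsb by 0.55, Mccc2 by 0.44 and Bckdha by 0.38, and 13 were called lower in NormMg-HFD mice. No gene of the list was called without NormMg-LFD replicate 2, 3 or 5, without LowMg-HFD replicate 1 or 2, with the replicate block, with no filter or when the 2 groups were fitted alone, and 8 were called without LowMg-HFD replicate 3. Of 26 genes of the respiratory chain and citric acid cycle 4 fell (median -0.21), the largest fall being Ndufb8 at -0.40. None of these 26 was called without NormMg-LFD replicate 2 or 3 or without LowMg-HFD replicate 1 or 2, 1 was called without NormMg-LFD replicate 4 and 5 without LowMg-HFD replicate 4. Of 19 tested genes of fatty acid oxidation 3 rose and 1 fell (median 0.13), where 5.29% of all tested genes rose. Acadm and Acadl, acyl-CoA dehydrogenases, rose by 0.44 and 0.43, Cpt1a, the gate of mitochondrial fatty acid entry, rose by 0.43, and Echs1 fell by 0.36. Acadm lost its call in 8 of 19 alternatives (limma adjusted p up to 0.0650). The list had no rise and 1 fall with median centring, 1 of each with quantile scaling and no call when the 2 groups were fitted alone, and leaving out 1 mouse gave 1 to 3 rises and at most 1 fall. In lipolysis and adrenergic signalling Adrb3 was the 1 gene of 11 to pass, with Pnpla2, the adipose triacylglycerol lipase, at -0.05 and Lipe, the hormone-sensitive lipase, at -0.22. Of 10 genes of triacylglycerol synthesis 1 fell, Mogat1 by 1.03. Neither list had a call without NormMg-LFD replicate 3.

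Some matrix genes rose, Col1a1, Col1a2 and Col3a1 not among them. Of 26 collagen and matrix genes, all tested, 7 rose and none fell (median 0.38), where 5.29% of all tested genes rose. In NormMg-HFD mice 21 rose (median 1.03), against 24.6% of all tested genes. LowMg-HFD mice lay below NormMg-HFD mice in 20 of the 26, against 12.9% of all tested genes. Postn (periostin) was at 103, 98.4, 58.6, 69.2 and 78.9 FPKM against 28.7 to 41.5 in NormMg-LFD mice, with no overlap (log2 change 1.13, limma adjusted p = 0.00736). Col6a3 rose by 0.80, Col6a2 by 0.60, Col5a1 by 0.51, Col4a2 by 0.47, Sparc by 0.63 and Lox, the collagen cross-linking enzyme, by 0.69, a call that Lox lost in 10 of 19 alternatives (limma adjusted p up to 0.118). Col1a1 at 0.26 and Col1a2 at 0.14 did not pass. Col3a1 was at 343, 452, 326, 328 and 322 FPKM in LowMg-HFD mice, 238 to 337 in NormMg-LFD mice and 699 to 1068 in NormMg-HFD mice. LowMg-HFD values overlapped the lean but not the obese mice, with a log2 change of 0.31 against NormMg-LFD (limma adjusted p = 0.334) and -1.31 against NormMg-HFD (limma adjusted p = 0.000661). Timp1, an inhibitor of matrix proteases, was at 0.72 (limma adjusted p = 0.460) and 2.64 below NormMg-HFD. Of the matrix list 6 genes were called higher without LowMg-HFD replicate 4, 3 without NormMg-LFD replicate 3 and 4 without NormMg-LFD replicate 4.

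**Figure D5:**
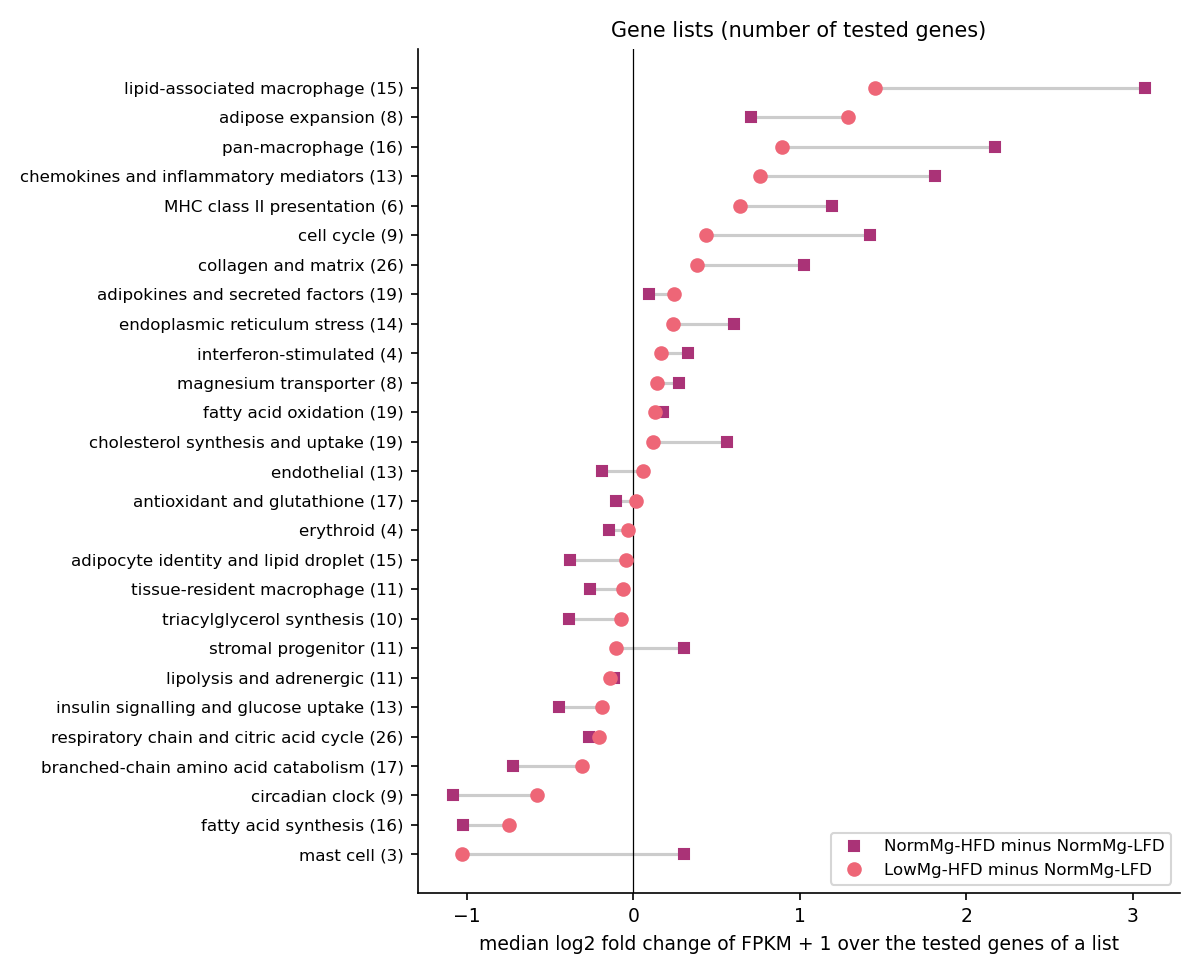
Median log2 fold change over the tested genes of each list, with the number tested in brackets, for LowMg-HFD minus NormMg-LFD (circles) and NormMg-HFD minus NormMg-LFD (squares), which share their control mice. The lipid-associated macrophage median was 1.45 in LowMg-HFD and 3.08 in NormMg-HFD mice, and the fatty acid synthesis medians were -0.75 and -1.02.

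Genes of adipocyte identity were not called with all mice. None of 15 adipocyte and lipid droplet genes passed (median -0.04), whereas 8 were called lower in NormMg-HFD mice, against 12.8% of all tested genes. Of the 15, 5 were at the lean level, which held for 55.1% of all tested genes. Without LowMg-HFD replicate 4 the median was 0.06, and Cavin1, a caveolar coat protein, and Cd36, a fatty acid transporter, were called higher, by 0.56 and 0.41. Adipoq (adiponectin) was at 2170, 1776, 2373, 1451 and 2381 FPKM in LowMg-HFD mice and 1422 to 2438 in NormMg-LFD mice, with overlapping groups. Its log2 difference was -0.04 (95% interval -0.42 to 0.33), and it stood 0.69 above NormMg-HFD. Car3, carbonic anhydrase of adipocytes, was at -0.24, Fabp4 at 0.30 and Pparg at -0.19. None of 13 endothelial genes passed (median 0.06), and 11 of these were at the lean level. None of 13 insulin signalling genes passed either, and 3 of these were at the lean level. Slc2a4, the insulin-responsive glucose transporter, was at -0.38 and Insr at -0.29. Of 11 stromal progenitor genes Lum, a matrix proteoglycan, rose by 0.64, a call lost without LowMg-HFD replicate 4 and without NormMg-LFD replicate 3.

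A set of 1097 genes was at the lean level in LowMg-HFD mice and called in NormMg-HFD mice, 716 higher and 381 lower there. The 6 largest NormMg-HFD rises among them were Cmtm7, Scamp5, Fstl1, Folr2, Ssc5d and Ostc, and the 6 largest falls Kyat3, Kcnj15, Plin4, Adig, Uggt2 and Podxl. Fstl1, a glycoprotein secreted by mesenchymal cells, was at 85.8, 84.9, 91.4, 63.2 and 93.6 FPKM in LowMg-HFD mice, 73.7 to 77.9 in NormMg-LFD mice and 112 to 168 in NormMg-HFD mice. Plin4, a coat protein of lipid droplets, was at 845, 703, 1042, 577 and 947 FPKM in LowMg-HFD mice, 635 to 1052 in NormMg-LFD mice and 349 to 589 in NormMg-HFD mice. Adig (adipogenin) and Plin4, both adipocyte genes, differed from NormMg-LFD by -0.03 and -0.06, and from NormMg-HFD by 0.80 and 0.83. In Fstl1 every LowMg-HFD mouse but replicate 4 lay above the NormMg-LFD mice. Scamp5 and Ssc5d were each called in 1 of 19 alternatives (limma adjusted p = 0.0400 and 0.0379). NormMg-LFD replicate 4 was the highest of its group for Scamp5 and Ostc, at 16.6 (next 9.8) and 31.2 (next 22.3) FPKM. Since the lean-level rule uses the same values, the genes of this set are given as a description.

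A few genes differed in the same direction from NormMg-LFD and from NormMg-HFD mice, 11 called higher and 3 lower against both. Atp2a3, a sarco-endoplasmic reticulum Ca2+ pump, was at 44.1, 46.9, 37.6, 35.9 and 41.1 FPKM in LowMg-HFD mice, 22.0 to 26.3 in NormMg-LFD mice and 17.8 to 31.8 in NormMg-HFD mice, with no overlap with either. Against NormMg-LFD the log2 change was 0.74 (SE 0.16, limma adjusted p = 0.0120) and 0.80 against NormMg-HFD (limma adjusted p = 0.00269). Abat, the 4-aminobutyrate transaminase, was at 23.5 to 27.3 FPKM against 10.1 to 19.9 in NormMg-LFD mice and 6.06 to 17.5 in NormMg-HFD mice, a log2 change of 0.75 (limma adjusted p = 0.0388). Its call was lost in 10 of 19 alternatives (limma adjusted p up to 0.138). Cdc42ep3, Cmbl, Zc2hc1a and Icam2, an endothelial adhesion molecule, rose by 0.59, 0.53, 0.52 and 0.51. Cdc42ep3, Zc2hc1a and Icam2 lost the call in 6, 6 and 8 of the 19. Against LowMg-LFD mice Cmbl was not called (limma adjusted p = 0.0567), while the other 5 of these genes were. The 3 lower genes were the mast cell proteases Cma1 and Tpsb2 and the immunophilin Fkbp2. Cma1 was at 3.42, 2.97, 7.16, 2.76 and 3.25 FPKM against 7.43 to 12.2 in NormMg-LFD mice (log2 change -1.08, limma adjusted p = 0.0438). All 3 lost the call without LowMg-HFD replicate 4, with limma adjusted p of 0.0650, 0.0561 and 0.0678. Against LowMg-LFD mice none of the 3 was called (limma adjusted p of 0.227 for Cma1, 0.147 for Tpsb2 and 0.557 for Fkbp2), and Cma1 was at 3.88 to 10.3 FPKM there, overlapping the LowMg-HFD mice. Of 9 mast cell genes 3 were tested, 2 fell, and none was called once any 1 of the 3 libraries that stood apart was left out.

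Of 16 listed genes of Mg2+ transport, 8 were tested and 2 rose, Tusc3 by 0.61 and Mmgt1 by 0.36 (median 0.14), where 5.29% of all tested genes rose, while Trpm7, the channel kinase of cellular Mg2+ entry, was at -0.11, Cnnm2 at 0.05 and Mrs2, the mitochondrial Mg2+ channel, at 0.15. Neither call was kept without NormMg-LFD replicate 3, and 1 was kept without NormMg-LFD replicate 4. Of 14 endoplasmic reticulum stress genes 2 rose, Atf3 by 2.08 and Ddit3 by 0.47, and Hspa5 was at 0.29. The list had 1 call without LowMg-HFD replicate 4, 1 without NormMg-LFD replicate 3 and 0 when the 2 groups were fitted alone, and Ddit3 lost its call in 15 of 19 alternatives. Of 17 antioxidant genes Hmox1, the haem oxygenase, and Sod3, the extracellular superoxide dismutase, rose by 0.96 and 0.62, and the glutathione transferases Gsta3 and Gsta4 fell, Gsta3 by 1.28. Of this list none rose and 1 fell without NormMg-LFD replicate 3, and 2 rose and 1 fell without NormMg-LFD replicate 4. Hmox1 and Sod3 lost the call in 7 and 5 of 19 alternatives. Sod3 differed from NormMg-HFD by 0.02 (95% interval -0.27 to 0.32). Of 9 tested clock genes Cry2 fell by 0.35, with Dbp at -1.23 and not past the threshold (limma adjusted p = 0.259). No clock gene was called once any 1 of the 4 NormMg-LFD mice was left out, or without LowMg-HFD replicate 1, 2 or 5. Of 9 tested cell cycle genes Birc5 (survivin) rose by 1.29, a call lost without NormMg-LFD replicate 2 or 3 and without LowMg-HFD replicate 1 or 2. Of 4 interferon-stimulated genes none passed, and 1 passed without LowMg-HFD replicate 4 or without NormMg-LFD replicate 4. Acta1, a skeletal muscle actin and the 1 tested muscle gene, rose by 1.22 with overlapping groups, and lost its call in 13 of 19 alternatives (limma adjusted p up to 0.128). None of 4 erythroid genes passed, and single thermogenic (Cox8b, 0.10), mesothelial (Krt19, -0.83) and pancreatic (Cela1, 0.06) genes were tested and did not pass, while no lymphocyte or epididymal gene reached the filter.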

How the data were processed

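RNA of eWAT from 19 mice was sequenced, 1 library per mouse. The authors aligned reads to GRCm38 (mm10) with HISAT and Bowtie2 and deposited FPKM values from RSEM 1.2.31, with a summary giving total reads and the percent mapped, both deposited per library. No read counts were used. The table held 24237 usable genes, with 26 symbols turned into dates restored, 12 spilled lines and 1 gene with a value that was not a number left out.

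Genes with a mean above 8 FPKM in a group and above 8 in at least 4 mice were tested (8336). Values were taken as log2(FPKM + 1), which understates fold changes of low genes, and fitted in R 4.3.3 over all 4 groups by limma 3.58.1, letting the variance follow intensity, and a gene was called at a Benjamini-Hochberg adjusted p under 0.05. The PC1 difference had an exact permutation test. Scripts were tested on simulated data. Figures used Python 3.11.15 and matplotlib 3.10.9. Named genes were the 12 largest non-overlapping called rises and falls without predicted genes, key genes of 33 lists, 6 rises and 6 falls of NormMg-HFD at the lean level in LowMg-HFD, and up to 6 each called against both groups. Other genes are named as list members. Members and lists were chosen with earlier results of these data known. Alternatives were another pseudocount, filter, scaling, trend, set of groups, a replicate block and leaving out each mouse.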

Additional observations from a re-analysis of the deposited data

Results flagged for a closer look

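Values of 1 mouse that stood far from the others of its group were found in 15 of 164 groups of values examined. The measure was the gap to its neighbour over the range of the group. The cut-offs give about 1 in 20 for independent normal values. FPKM of related genes and lists, some chosen from the same mice, need not follow that, so the 15 are a description. In LowMg-HFD replicate 3 the erythroid genes summed to 4495 FPKM (next 1468), and Cma1 was at 7.16, Tpsb2 at 8.08 and Podxl at 26.2 FPKM, each the highest of the group. In LowMg-HFD replicate 4 Cdc42ep3 was high at 20.9 FPKM, Fstl1 low at 63.2, and the epididymal genes summed to 2.06 FPKM (next 0.66).

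In NormMg-LFD replicate 3 the pancreatic genes summed to 2041 FPKM (next 24.1), with Podn at 94.95 and Rgs1 at 1.39 FPKM. NormMg-LFD replicate 4 had a root mean square log2 distance of 0.423 (next 0.321), summed fatty acid oxidation genes of 1758 FPKM, summed Mg2+ transporter genes of 184 FPKM, Scamp5 at 16.6 and Ostc at 31.2 FPKM.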

How the results depend on the processing

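The 578 calls (441 higher, 137 lower) became 245 (191 and 54) with no filter on low values, 103 (81 and 22) when the 2 groups were fitted alone and 199 to 804 when 1 mouse was left out, with 154 to 620 higher and 45 to 215 lower. Quantile scaling gave 527 with 216 lower (59% higher) and median centring 531 with 66.1% higher, against 76.3%. With the replicate number as a block, 380 genes were called, 302 higher and 78 lower. Deviations of mice of equal number correlated at 0.0032 to 0.258, highest for number 4, and 1 of 4 matched its own number best. The labels give no pairing, so the unblocked fit was kept, and whether number 4 marks something shared was not tested. Genes at the lean level were 12228 of 24237 with no filter and 4591 of 8336 with it.

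The PC1 shift of 28.3 was 19.9 with no filter (exact permutation p = 0.635) and 24.3 to 31.7 with 1 mouse left out. Without both LowMg-HFD replicate 4 and NormMg-LFD replicate 3, an alternative chosen after seeing the data, it was 28.7 (exact permutation p = 0.0571), with 434 calls and 87 lower. The median of the adipokine list, 0.24, was -0.0877 to 0.413 with 1 mouse left out, and -0.0877 without NormMg-LFD replicate 4. The cause of these changes was not tested. FPKM without counts leave the error of low genes unknown.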

Other observations

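Genes chosen after their values were seen included immunoglobulin variable segments, of which 213 were in the table and 4 were tested. None rose and 2 fell. Ighv11-2, a heavy chain segment, was at 1.99, 5.64, 48.5, 3.96 and 16.7 FPKM in LowMg-HFD mice and 49.6, 39.9, 139 and 57.8 in NormMg-LFD mice. LowMg-HFD replicate 3 overlapped the NormMg-LFD mice and the others lay below them. In LowMg-LFD mice, also lean, Ighv11-2 was at 3.95 to 26.5 and Igkv14-126 at 5.21 to 63.6 FPKM, overlapping the LowMg-HFD mice. The log2 change of Ighv11-2 was -2.73 (SE 0.67, limma adjusted p = 0.0202), and -2.49 without LowMg-HFD replicate 4 (limma adjusted p = 0.0316). Igkv14-126, a light chain segment, was at 3.15, 10.6, 125, 11.5 and 29.9 FPKM against 78.2 to 254, a log2 change of -2.66 (limma adjusted p = 0.0418), which did not pass without LowMg-HFD replicate 4 (limma adjusted p = 0.0605). Neither differed from NormMg-HFD past the threshold, at -0.87 for Ighv11-2 and -0.50 for Igkv14-126. All variable segments summed to 133 to 606 FPKM in LowMg-HFD and 278 to 876 in NormMg-LFD mice, which overlap. The segments are similar in sequence, so the assignment of reads among them is uncertain.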
